A study of Mus musculus with 454 samples.

Results

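The cells described here are vagal sensory neurons high in Uts2b, which encodes the peptide urotensin 2B, and in Cckar, the receptor through which vagal afferents respond to cholecystokinin. They were chosen in a droplet library of the mouse nodose ganglion by the mean of log2(CPM + 1) over 5 genes (CPM, UMIs scaled to the total of the barcode): Uts2b, Cckar, Gabre, Cbln4 and Sctr. The 85 barcodes with the highest score are the members, 7.67% of all barcodes of the filtered matrix. They were set against the 982 other barcodes with a Snap25 level of 500 CPM or more (Snap25, a synaptic protein of neurons), called other neurons here, and 41 barcodes fell in neither set. Members were thus chosen from measured values, and their levels of these 5 genes describe the choice.

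The series profiled single cells from nodose ganglia of wild-type C57BL/6 mice under a title on the control of feeding. The droplet library came from mice 6 weeks old and is 1 library, so its comparisons have no replicate and carry counting intervals only. The rest of the 454 samples are single cells from mice 8 to 12 weeks old, amplified one by one with Smart-seq2. The labels name no agent, allele or Cre line for either set, and the picked cells carry codes such as GastG, IntM or Port, whose full meaning the sources used here do not give. The labels do not say how many mice gave the droplet library.

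Vagal afferent neurons have their cell bodies in the nodose ganglion and send one branch to thoracic and abdominal organs and another to the nucleus of the solitary tract in the brainstem. Afferents of the gut detect stretch of the wall, nutrients and hormones of enteroendocrine cells, among them cholecystokinin, peptide YY, secretin and glucagon-like peptide 1. Cholecystokinin acts on them through the receptor encoded by Cckar and is a classical satiety signal.

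Depth was similar in both groups: members had 15374 to 99460 UMIs per cell with a median of 64473, against 13505 to 169263 with a median of 55350 in other neurons. Together they gave 5414944 UMIs, and the other neurons 61814840. Mitochondrial genes took 14.2% of the members' UMIs, with a median of 13.6% per cell, against 7.82% of those of other neurons, with a median of 7.28% per cell. This share lowers every other gene's CPM in members, and leaving mitochondrial UMIs out of the totals multiplied each ratio by 1.07. Its part in the results was not tested otherwise. Scrublet called 3 barcodes as doublets, 0.271% of all, too few for the caller to be taken as working, and 0 of them were members.

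The score fell without a gap at the edge of the set. The last member scored 5.18 and the first barcode outside 5.12, with 9 members within 0.5 above the last member's score and 10 barcodes outside within 0.5 below it. The last member had 523 CPM of Uts2b, 1862 of Cckar, 62.8 of Gabre and 0 of Cbln4 and Sctr, and the first barcode outside had 1247 CPM of Uts2b, 2079 of Cckar, 18.9 of Cbln4 and 0 of Gabre and Sctr. Of the members, 50 had a UMI of all 5 genes, 30 of 4 and 5 of 3. The choice by these same genes left 5 other neurons with 4 of them and none with 5. Leaving Cckar out of the score returned the same 85 barcodes, while leaving out any of the other 4 genes kept 78 to 81 of them.

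**Figure D1:**
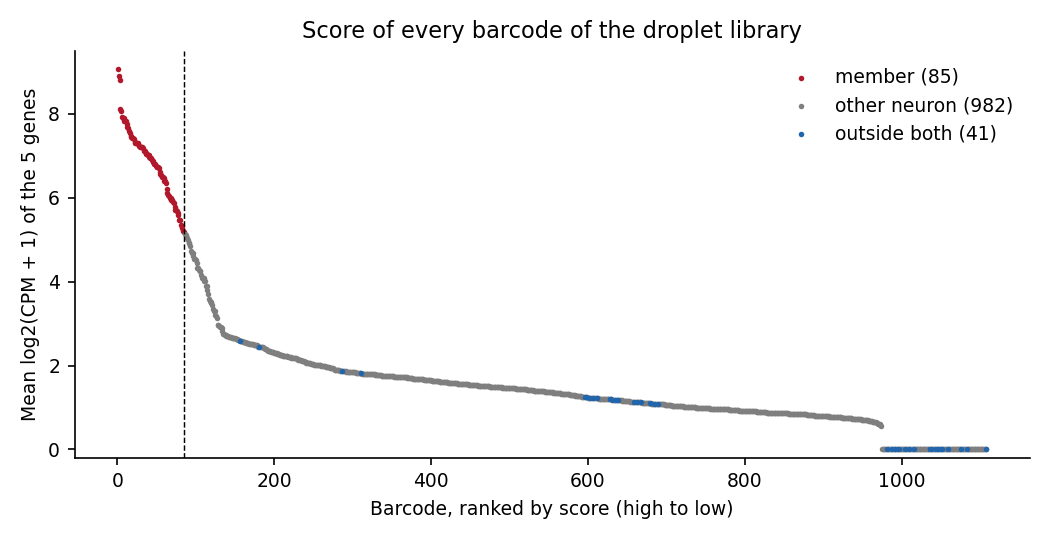
Score of each barcode of the filtered matrix, ranked from high to low; the y axis is the mean log2(CPM + 1) of the 5 genes and the dashed line marks rank 85. Members, other neurons and the 41 barcodes outside both are coloured, and the scores run on across the line, from 5.18 for the last member to 5.12 for the next barcode.

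Of the rule genes, Cckar (chromosome 5, 53697776 to 53707705, mm10) was present in all 85 members, at 577 to 3311 CPM with a median of 2147, against 0 to 3686 CPM with a median of 34.98 in other neurons. Its summed level was 2118 CPM in members and 144.4 CPM in other neurons, a 14.7-fold ratio (14.3 to 15.1, 95% interval, exact for the ratio of Poisson counts, as given for every droplet ratio). Only 15 other neurons, 1.53%, lay at or above the level that 90% of the members passed. Uts2b (chromosome 16, 27353322 to 27370239) had a UMI in 83 of 85 members and in 27.9% of other neurons, at summed levels of 589 and 17.9 CPM. Its spread among members was wide, with quartiles of 161.9 and 779.2 CPM and a highest value of 3239 CPM.

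The other rule genes were scarcer. Gabre, the epsilon subunit of the GABA-A receptor (chromosome X, 72255999 to 72274803), reached 72.4 CPM in members and 0.874 in other neurons. Cbln4, a secreted synapse organiser (chromosome 2, 172036233 to 172043466), reached 62.4 and 1.05 CPM, and Sctr, the receptor for secretin (chromosome 1, 120006894 to 120063536), 34.5 and 0.793 CPM. A UMI of Gabre lay in 88.2% of members (exact Clopper-Pearson interval 79.4 to 94.2%), 2.75% of other neurons and 0 of 21 satellite glia-like barcodes, at median depths of 64473, 55350 and 14919 UMIs. After each barcode was thinned to 10000 UMIs these shares were 49.4%, 0.916% and 0%. Intervals cover counting error only.

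The promoters of the rule genes are shown because these genes are high in the same cells, along with that of Glp1r, the GLP-1 receptor, to which the picked cells below turn. RefSeq (GRCm38.p6) gave an entry for 3 of the 5 rule genes, and for Glp1r. Each runs from 250 bases before to 50 after RefSeq's start of the gene, which need not be the end of the gene coordinates given here. Uts2b lies at chr16:27370190-27370489 (minus strand), Gabre at chrX:72274672-72274971 (minus), Cbln4 at chr2:172043417-172043716 (minus) and Glp1r at chr17:30901617-30901916 (plus). Capitals mark matches, on either strand, to the 4 motifs searched.
Uts2b promoter: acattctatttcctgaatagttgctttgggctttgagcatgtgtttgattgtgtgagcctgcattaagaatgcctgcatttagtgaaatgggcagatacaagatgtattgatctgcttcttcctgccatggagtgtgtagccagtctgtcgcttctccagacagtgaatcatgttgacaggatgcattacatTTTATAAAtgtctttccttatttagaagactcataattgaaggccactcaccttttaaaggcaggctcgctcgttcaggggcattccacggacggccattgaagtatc
Gabre promoter: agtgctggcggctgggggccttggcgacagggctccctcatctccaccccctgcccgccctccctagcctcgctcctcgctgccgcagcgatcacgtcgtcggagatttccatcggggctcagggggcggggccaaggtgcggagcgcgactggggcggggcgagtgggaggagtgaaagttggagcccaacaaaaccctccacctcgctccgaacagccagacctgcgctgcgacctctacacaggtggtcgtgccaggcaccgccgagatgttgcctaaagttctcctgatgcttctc
Cbln4 promoter: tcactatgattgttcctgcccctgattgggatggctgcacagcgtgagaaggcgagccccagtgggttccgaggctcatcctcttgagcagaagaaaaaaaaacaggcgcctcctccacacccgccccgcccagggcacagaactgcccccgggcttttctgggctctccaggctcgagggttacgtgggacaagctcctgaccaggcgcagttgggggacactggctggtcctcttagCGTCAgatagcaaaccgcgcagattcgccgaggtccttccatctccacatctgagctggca
Glp1r promoter: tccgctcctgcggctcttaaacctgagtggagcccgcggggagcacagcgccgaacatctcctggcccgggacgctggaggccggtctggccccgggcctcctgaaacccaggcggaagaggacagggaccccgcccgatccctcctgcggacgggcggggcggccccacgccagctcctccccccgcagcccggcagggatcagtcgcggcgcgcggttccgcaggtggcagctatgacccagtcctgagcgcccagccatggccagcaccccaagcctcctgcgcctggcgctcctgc

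The first motif, TATAAA, is that of the TATA box, and 13.6% of the 32851 promoters of the same length hold a match on either strand. The core of the cAMP response element, TGACG, occurs in 20.8% of them, the T-box core, searched as GGTGTGA, in 3.98%, and the homeodomain core, searched as TAATTA, in 5.29%. The Uts2b promoter holds 2 overlapping matches to TATAAA on opposite strands, at -58 and -56 from the start. The Cbln4 promoter holds 1 match to TGACG, at -11. The windows of Gabre and Glp1r hold none of these letters. Base composition differed among them, with 43% G and C and 5 CpG in Uts2b, 60.3% and 15 in Cbln4, 66.7% and 24 in Gabre and 73.7% and 29 in Glp1r, against medians of 52.7% and 7 over all promoters. No motif searched was shared among the 4.

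Of the markers of nodose neurons, P2rx2, a subunit of ATP-gated channels, had a UMI in all 85 members and 97.5% of other neurons, at 363.99 and 279.7 CPM, and Htr3a, a subunit of the serotonin-gated channel, in 91.8% and 86.3%, at 609.98 and 533.7 CPM. The homeodomain factor gene Phox2a was low in both, at 1.48 CPM in members and 15 CPM in other neurons, and Hand2 had 0 UMIs in members and 3 in other neurons. A jugular-like list, of which 4 of 5 genes could be measured, stood at a median of 10.1 CPM in members (0 to 69.9) and 0 in other neurons (0 to 12757). A sympathetic-like list had medians of 161.5 CPM (0 to 727) in members and 40.95 CPM (0 to 752) in other neurons, with Npy and Slc6a2 at 0 in members. Satellite glia genes had medians of 328.3 CPM (120.6 to 13149) in members and 286.3 CPM (0 to 29726) in other neurons, myelinating Schwann cell genes 174.1 and 329.01 CPM, and endothelial genes 107.7 and 90.9 CPM. Lists of mural cells, fibroblasts, macrophages and red blood cells had medians of 0 CPM in both groups. The part of these levels in the results was not tested.

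Across the droplet library, 11158 genes had 200 UMIs or more over both groups. Of these, 3.19% were over 2-fold higher in members and 9.83% (1097 genes) over 2-fold lower, the background against which members are read, and the median ratio was 0.906. Without mitochondrial UMIs, an alternative chosen after seeing the data, 420 were over 2-fold higher and 961 lower. These are descriptions of 1 library. Other neurons gave most of the UMIs. A gene found only in them therefore reached 200 UMIs at a lower CPM than one found only in members. The 5 genes outside the rule whose log2 levels followed the score most closely over its 1067 neurons were Myl1 (Pearson's r = 0.581), Tm4sf4 (0.573), Fndc1 (0.550), St18 (0.540) and Osmr (0.530).

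Outside the rule, the 12 highest ratios, among genes with a UMI in at least 20% of members, began with Osmr. It encodes the subunit that pairs with gp130 to bind oncostatin M. Osmr stood at 73.1 CPM in members and 3.88 CPM in other neurons (18.8-fold, 16 to 22.2) and had a UMI in 54 of 85 members and 98 of 982 other neurons. Myl1, a myosin light chain best known from fast skeletal muscle, stood at 585 CPM in members and 48 CPM in other neurons (12.2-fold, 11.6 to 12.8) and was found in 84 of 85 members and 42.3% of other neurons. Amigo2, a leucine-rich repeat adhesion protein, was found in all 85 members, at 123.1 to 864 CPM with a median of 377.5, against 0 to 407.2 CPM with a median of 16.9 in other neurons. Its 10.95-fold ratio (10.3 to 11.6) came with little overlap: 26 other neurons, 2.65%, reached the level that 90% of members passed.

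The other 9 ran from 9.09- to 11.4-fold. They were Palmd (palmdelphin), Kctd12 (an auxiliary subunit of GABA-B receptors), Tm4sf4 (a membrane protein of the L6 family), Kcnq5 (an M-current potassium channel), Upp1 (uridine phosphorylase), Cox4i2 (an isoform of a cytochrome c oxidase subunit), Fndc1, Akr1b7 (of the aldose reductase family) and Ctla2a (an inhibitor of cysteine proteases). Trpc6, a receptor-operated cation channel, had a higher ratio than any of these, 42.9 (30.2 to 62.1), but at 28.4 CPM in members and 0.663 CPM in other neurons it stayed under the minimum of 200 UMIs. It is described among the picked cells, whose rule named it.

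The 8 lowest ratios were taken among genes with a UMI in at least 20% of other neurons. These genes thus entered through the group where they are high, and 7 of them had no UMI in any member. Cacng2, which encodes the AMPA receptor auxiliary subunit stargazin, had 995 UMIs in other neurons, so its ratio was at most 0.0344 (3 counts over the group). Lpar3, a receptor for lysophosphatidic acid, was at most 0.0561, Hgf, the hepatocyte growth factor, at most 0.0812, and Ptgdr, the prostaglandin D2 receptor, at most 0.0911. Pcdh20, a protocadherin, Slc35f4 and Mroh7 were at most 0.103, 0.106 and 0.117. Opcml, a surface adhesion molecule, had 1 UMI in members and 1037 in other neurons, a ratio of 0.011 (0.000278 to 0.0615).

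**Figure D2:**
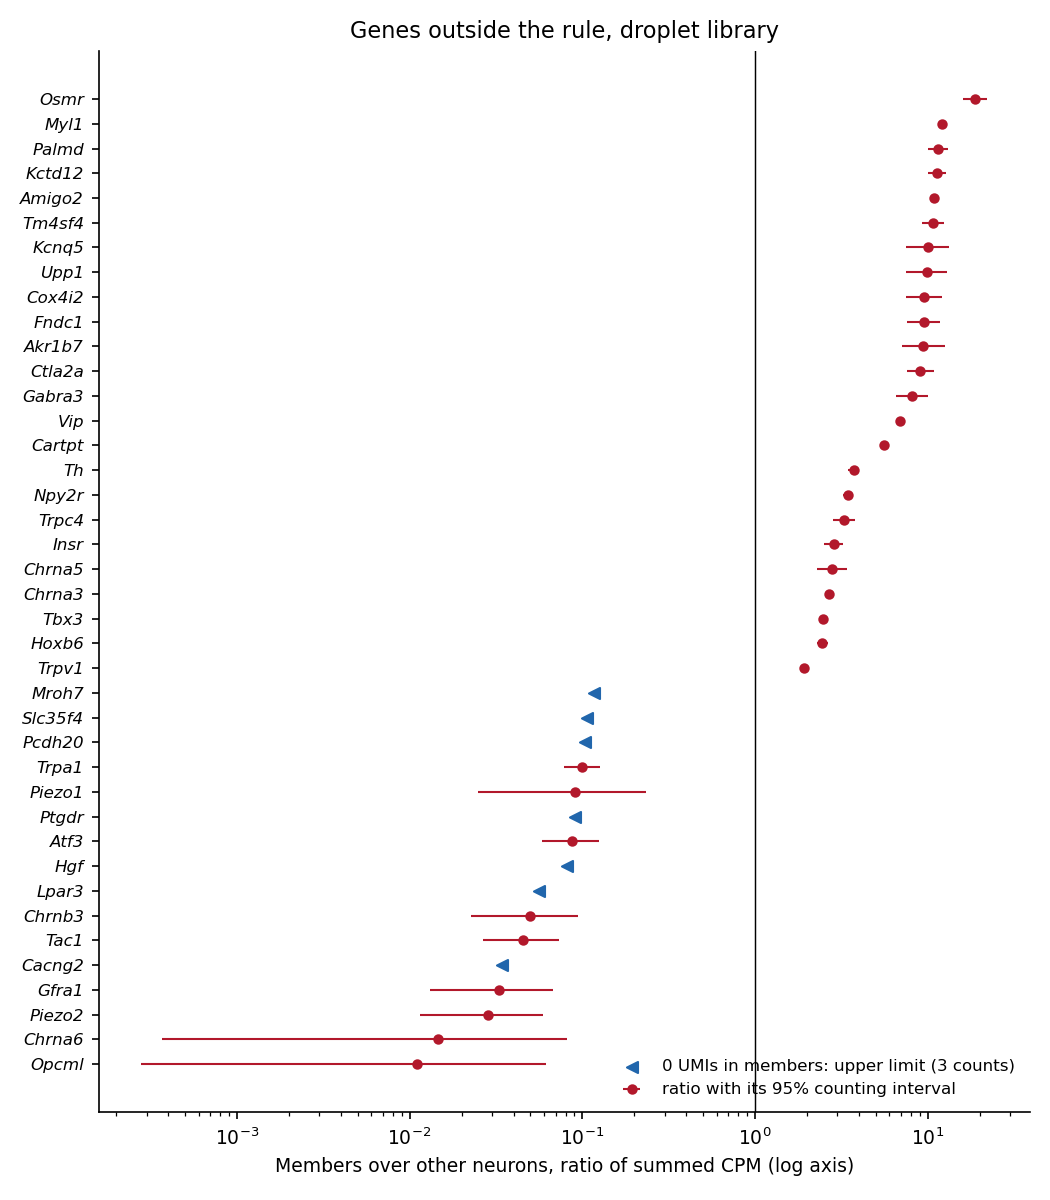
Ratio of summed CPM in members over other neurons for genes outside the rule in the droplet library, on a log axis; points carry 95% counting intervals and triangles are upper limits for genes with 0 UMIs in members. Osmr lies highest at 18.8, and the rule genes are not drawn.

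Picked cells took no part in the choice of members, so they were scored with the same 5 genes. The 35 cells with the highest score, of those with at least 2000 genes, are called high-score cells, and the rest other cells. They came from 19 mice with 1 to 4 such cells each, and all of these mice had other cells too. Each mouse is 1 replicate, and limma was fitted to the difference between the mean log2(CPM + 1) of its high-score cells and of its other cells. This was done over 12697 genes outside the rule with 10 reads in at least 5% of cells. The p-values measure the spread of these differences between mice. Only 9 mice had 2 or more high-score cells, so this spread includes that between single cells. The high-score cells were themselves chosen from measured values of the tested cells. Genes that vary with the 5 rule genes from cell to cell can therefore pass, and the p-values describe a contrast chosen this way. Depth was close, with a median of 1571937 reads and 11320 genes in high-score cells and 1620302 reads and 11393 genes in other cells. The last high-score cell scored 5.25 and the next cell 5.15.

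At an adjusted p under 0.05, 1774 genes (14%) were higher and 1583 (12.5%) lower in high-score cells, with a median log2 change of -0.00 over all genes tested. Higher genes were thus 52.8% of the calls. On the same cells summed per mouse this share was 34.8% by edgeR (1210 higher and 2264 lower) and 34.3% by DESeq2 (1427 and 2736), with medians over all genes of -0.12 and -0.11. The balance of higher to lower genes thus moved with the tool, and 1172 and 1336 of the 1774 higher genes were also called higher by edgeR and by DESeq2.

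Genes named from the droplet library were read against that background. All 11 of the 12 highest that could be tested were higher in high-score cells, with log2 changes of 1.16 to 6.90, and Cox4i2 was not tested. Of the 8 lowest, 6 were lower, while Lpar3 (-0.68 ± 0.32, SE, limma adjusted p = 0.119, lower in 16 of 19 mice) and Mroh7 (-0.15 ± 0.13, adjusted p = 0.433 by limma, lower in 14 of 19) did not pass. Tools that sum reads per mouse differed on 3 of these genes: edgeR called Lpar3 (-3.96, adjusted p = 8.55e-04) and Mroh7 (-2.43, adjusted p = 0.0273) lower, and did not call Akr1b7 (1.65, adjusted p = 0.199). Of the genes over 2-fold higher in members outside the rule that could be tested, 94.6% were higher and 0 lower by limma (0 lower at an unadjusted p under 0.05, and 1 lower by edgeR and 1 by DESeq2). Of 978 tested genes over 2-fold lower in members, 529 were lower (54.1%) and 12 higher (1.23%). Genes within 2-fold in the droplet library were higher in 13.4% and lower in 8.70%. The log2 ratio and the log2 change correlated across the 10465 genes with a UMI in members (Pearson's r = 0.66, Spearman's rho = 0.58), where genes are not independent replicates.

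**Figure D3:**
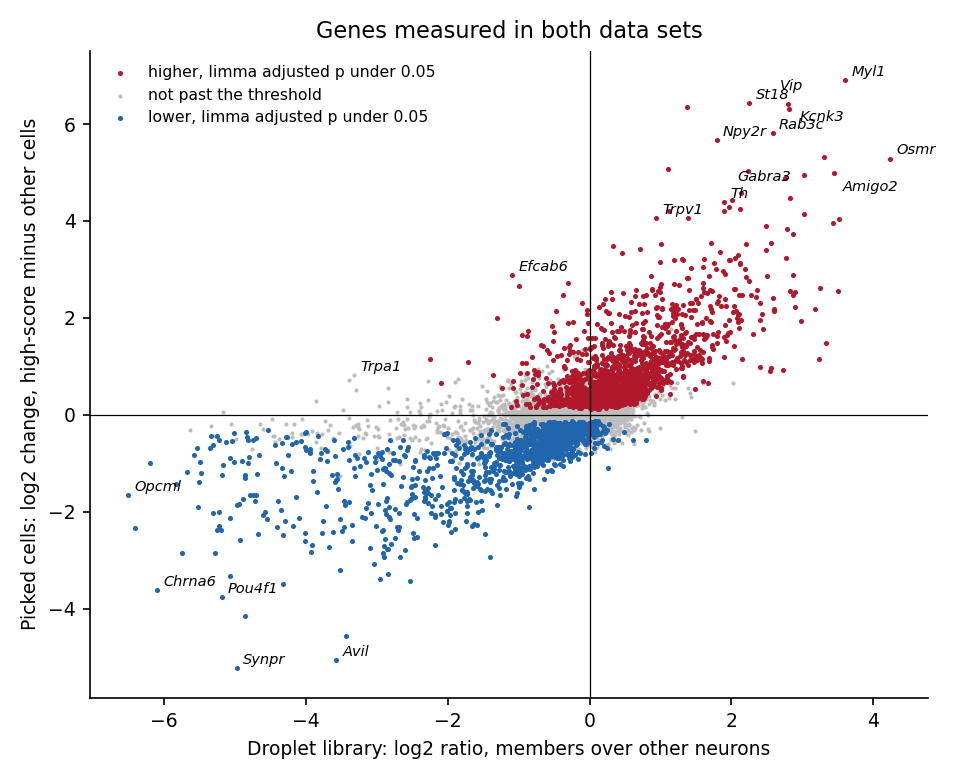
Each point is a gene outside the rule; the x axis is the log2 ratio of members over other neurons in the droplet library and the y axis the log2 change of high-score over other picked cells by limma, with genes at 0 UMIs in members left out. Red and blue genes passed an adjusted p under 0.05; Myl1 (6.90) and Osmr lie at the upper right, Synpr and Avil at the bottom left, and Efcab6 is lower in members and higher in high-score cells.

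The 8 highest changes in the picked cells were led by Myl1. Its mean per mouse ran from 4.17 to 9.28 with a median of 8.22 in high-score cells, and from 0 to 2.81 with a median of 0.674 in other cells, on the log2(CPM + 1) scale. Myl1 was thus higher by 6.90 ± 0.32 (SE, 19 of 19 mice, limma adjusted p = 1.62e-14). St18, a zinc finger transcription factor, was higher by 6.42 ± 0.29, with 7.21 to 9.26 in high-score cells and 0 to 4.16 in other cells. Kcnk3, the acid-sensitive leak potassium channel TASK-1, was higher by 6.32 ± 0.22, with 7.02 to 10.3 against 0.419 to 5.21. Both lay higher in each of the 19 mice.

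Trpc6 rose by 5.83 ± 0.19 in high-score cells (limma adjusted p = 6.06e-17), with 4.73 to 7.97 per mouse against 0.668 to 1.76 in other cells. Rab3c, a small GTPase of synaptic vesicles, rose by 5.82 ± 0.27, with 9.88 to 11.6 against 2.41 to 7.46. Tmem255b rose by 6.35 ± 0.24. They were also widespread in the members of the droplet library: Kcnk3 had a UMI in all 85 members and 76.3% of other neurons, at 1037 and 147.2 CPM, and Rab3c in all 85 and 93.6%, at 1256 and 210 CPM. St18, at 265.01 and 55.6 CPM, was likewise in all 85.

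The largest decreases were of genes common in the other neurons. Synpr, which encodes the synaptic vesicle protein synaptoporin, fell by 5.23 on the log2 scale (SE 0.47, limma adjusted p = 4.52e-09, lower in 18 of 19 mice), with 0 to 8.87 and a median of 0.675 in high-score cells, against 5.07 to 8.74 and a median of 6.59 in other cells. Most mice were near 0 in high-score cells, and a few stood at the level of the other cells. Avil, the actin-binding protein advillin of sensory neurons, fell by 5.06 (SE 0.63) and Alcam, an adhesion molecule, by 4.56 (SE 0.44). Pou4f1, the homeodomain factor Brn3a of sensory neurons, fell by 3.75 (SE 0.41), with medians of 0.102 in high-score and 4.62 in other cells.

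Dcdc2a, a doublecortin-domain gene, fell by 4.14 (SE 0.59), and Adcyap1, the gene of the peptide PACAP, by 3.42 (SE 0.42). Chrna6 and Chrnb3, subunits that assemble into one class of nicotinic receptor, fell by 3.61 (SE 0.41) and 3.49 (SE 0.35). In the droplet library Synpr had 25 UMIs in members and 8969 in other neurons (ratio 0.0318, 0.0206 to 0.0470), Pou4f1 14 and 5846 (0.0273, 0.0149 to 0.0459), Chrna6 1 and 781, and Chrnb3 9 and 2066. All 8 were lower in both data sets.

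**Figure D4:**
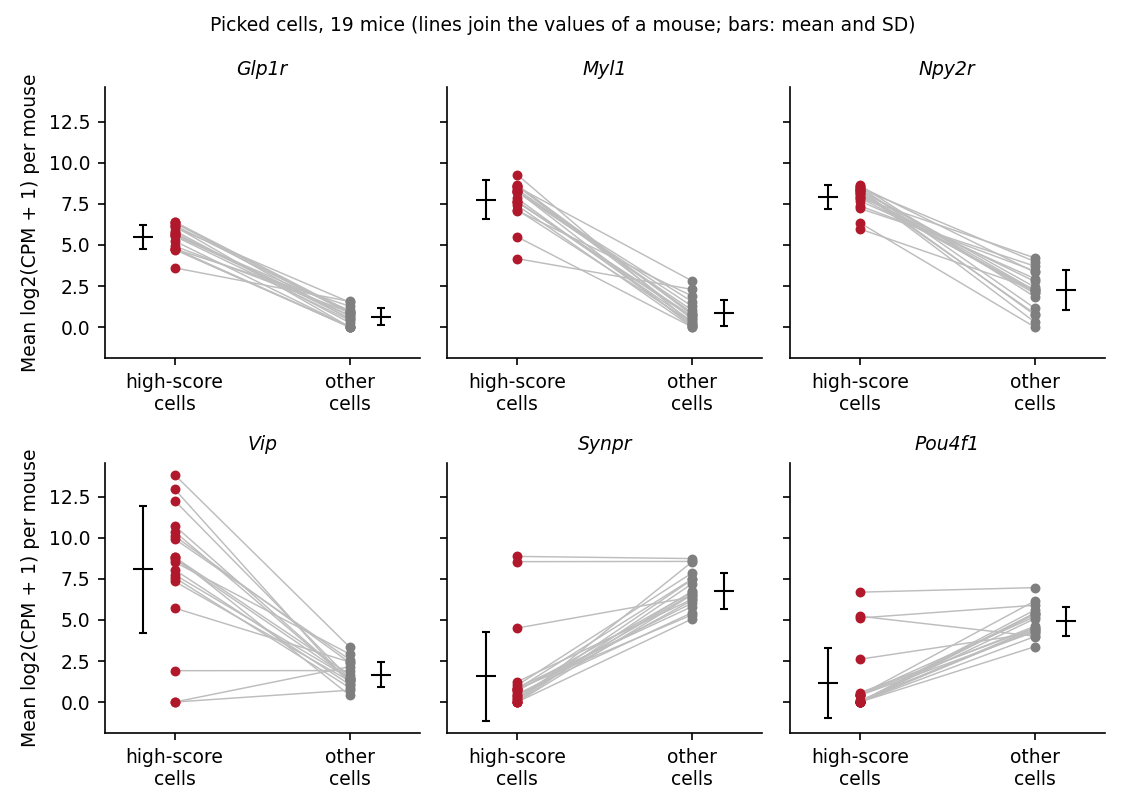
Mean log2(CPM + 1) per mouse of 6 genes in high-score cells (left of each panel) and other cells (right), 19 mice, with lines joining the values of a mouse and bars for the mean and SD. Glp1r, Myl1 and Npy2r are higher in the high-score cells of every mouse drawn, while in Vip, Synpr and Pou4f1 a few mice stand at the level of the other cells.

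Among receptors for gut hormones, Glp1r and Npy2r were higher in high-score than in other cells of each mouse compared in the picked set. Glp1r (chromosome 17, 30901817 to 30940791), which encodes the receptor for glucagon-like peptide 1, had 10 reads or more in 35 of 35 high-score cells and 39 other cells (9.42%), so 35 of the 74 Glp1r cells (47.3%) were high-score cells. Its level per cell was 7.22 to 102.8 CPM with a median of 54.5 in high-score cells, against a median and an upper quartile of 0 in other cells. Per mouse it ran from 3.61 to 6.41 in high-score cells and from 0 to 1.56 in other cells, and was higher by 4.86 ± 0.22 (SE, 19 of 19 mice, limma adjusted p = 1.38e-14). In the droplet library Glp1r had 0 UMIs in members and 3 in other neurons, so the rise was not seen there. A count of 0 in 85 members allows a share with a UMI of up to 3.53%. Glp1r was rare in the whole droplet library, with a UMI in 2 of 982 other neurons (0.204%). The droplet library and the picked cells thus differed on Glp1r, and the cause was not tested.

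Npy2r (chromosome 3, 82538383 to 82548084), the Y2 receptor for peptide YY and neuropeptide Y, was found in all 85 members and 51.02% of other neurons, at 210 and 60.5 CPM (3.47-fold, 3.24 to 3.71). In the picked cells it ran from 5.98 to 8.63 per mouse in high-score cells and from 0 to 4.21 in other cells, a rise of 5.68 ± 0.29 (SE, limma adjusted p = 9.97e-14, 19 of 19 mice). Insr, the insulin receptor, was 2.85-fold higher in members (57.1 and 20.01 CPM) and rose by 1.4 ± 0.21 in high-score cells (limma adjusted p = 1.74e-05). Cckbr, the receptor for gastrin and cholecystokinin, stood at 8.31 CPM in members and 3.54 CPM in other neurons (2.35-fold, 1.66 to 3.25) and rose by 2.07 ± 0.50 (adjusted p = 0.00257 by limma, 12 of 19 mice). Oxtr, the oxytocin receptor, was 1.20-fold in the droplet library (0.873 to 1.62) and rose by 2.11 ± 0.36 in high-score cells (limma adjusted p = 7.51e-05, 14 of 19 mice), a call that edgeR (1.12, adjusted p = 0.294) and DESeq2 (1.01, adjusted p = 0.210) did not make.

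In the droplet library genes of a list were measured where both groups together had 200 UMIs, most of which came from other neurons. Of the list of gut hormone and metabolite receptors, 6 of 12 measured genes were over 2-fold higher in members, the rule gene Cckar among them, and 4 lower. In the picked cells 4 of 18 tested rose and 5 fell by limma, with a median log2 change of 0.03, against 14% and 12.5% of all genes. These shares, and 3.19% higher and 9.83% lower of all genes in the droplet library, are the background for each list count below. Of this list 2 rose and 8 fell by edgeR, and 2 rose and 7 fell by DESeq2. Those that fell were Gpr65 (a proton-sensing receptor), Npy1r, Ptger3, Ptgfr and Galr1. Gpr65 fell by 2.85 (SE 0.41, limma adjusted p = 6.54e-06), and Npy1r, which had no UMI in members and a UMI in 15.2% of other neurons, by 0.47 (SE 0.15, limma adjusted p = 0.0176). Serotonin-gated channel subunits did not pass: Htr3a differed by 0.59 ± 0.83 and Htr3b by 1.77 ± 0.77 (limma adjusted p = 0.665 and 0.0949).

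The secretin family of receptors, to which Sctr and Glp1r belong, was measured in part: 4 of 15 genes of the list reached 200 UMIs in the droplet library. Beside Sctr, the 3 others were over 2-fold lower and reached the minimum through other neurons: Crhr2, a receptor for urocortins, stood at 3.69 and 56.4 CPM (ratio 0.0655), Pth1r, the receptor for parathyroid hormone, at 6.46 and 57.7 CPM (0.112), and Calcrl, the receptor component for CGRP and adrenomedullin, had 1 UMI in members and a UMI in 9.67% of other neurons (0.0565, 0.00142 to 0.318). In the picked cells Glp1r rose, and Crhr2 fell by 2.83 (SE 0.58) and Pth1r by 0.98 (SE 0.34, limma adjusted p = 0.0349), of 3 genes tested outside the rule. Without the mouse as a block Pth1r did not pass (limma adjusted p = 0.0698).

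Among peptide genes, Vip and Cartpt were high in both data sets. Vip, the gene of vasoactive intestinal peptide, stood at 661 CPM in members and 94.9 CPM in other neurons (6.97-fold, 6.68 to 7.26). Members differed widely in it: 65 of 85 had a UMI, 22 had 1000 CPM or more, and the range was 0 to 4424 CPM with a median of 323.1. Its ratio was 5.53 with 60 members and 8.98 with 110. In the picked cells Vip ran from 0 to 13.8 per mouse with a median of 8.71 in high-score cells, and from 0.411 to 3.35 with a median of 1.44 in other cells, and rose by 6.403 ± 0.76 (SE, 16 of 19 mice, limma adjusted p = 4.46e-07). Of the 35 high-score cells, 11 had 1000 CPM or more and 8 had under 10.

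Cartpt, which encodes the CART peptide of vagal afferents, stood at 3529 and 632 CPM (5.59-fold, 5.49 to 5.68) and was in all members, and it rose by 3.39 ± 0.32 in high-score cells (limma adjusted p = 9.69e-09, 18 of 19 mice). Gal, the gene of galanin, rose by 2.59 ± 0.70 (adjusted p = 0.00653 by limma, 14 of 19 mice), though not by edgeR (1.05, adjusted p = 0.559) or DESeq2 (0.85, adjusted p = 0.434), and Pdyn, the gene of dynorphin, by 2.10 ± 0.41. Of 14 measured genes of the peptide list, 3 were over 2-fold higher in members, counting the rule gene Uts2b, and 9 lower. Tac1, the gene of substance P, had 17 UMIs in members and 4265 in other neurons (0.0455, 0.0265 to 0.0729) but was -0.43 ± 0.20 in picked cells (limma adjusted p = 0.121), and -5.72 by edgeR (adjusted p = 1.20e-04). Edn3, the gene of endothelin 3, was at 0.0345 in the droplet library and fell by 1.24 in high-score cells (SE 0.28). Of 15 genes tested in the picked cells, 4 rose and 4 fell by limma, and 3 rose and 8 fell by edgeR and by DESeq2.

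GABA-A receptor subunits lay on both sides. Beside the rule gene Gabre, Gabra3, the alpha 3 subunit (chromosome X, 72432681 to 72656848), stood at 28.1 and 3.46 CPM (8.11-fold, 6.54 to 10.03), and it rose by 4.96 ± 0.31 in high-score cells (limma adjusted p = 9.94e-12, 18 of 19 mice). Gabrg1, another subunit, had 4 UMIs in members and 968 in other neurons (0.0472) and fell by 2.32 (SE 0.32). Of the list of GABA and glycine receptor subunits, 13 were measured in the droplet library. In members 2 were over 2-fold higher, the rule gene Gabre among them, and 4 lower, against 3.19% and 9.83% of all genes. In picked cells 2 of 13 outside the rule rose and 4 fell by limma, against 14% and 12.5% of all genes. By edgeR and by DESeq2 2 rose and 5 fell.

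Among cerebellins and their partners, of 13 measured, the rule gene Cbln4 was the 1 over 2-fold higher, and 7 were lower, among them Cbln2 (1 UMI in members, and a UMI in 7.33% of other neurons) and C1ql3, a secreted synaptic protein (19 and 6099 UMIs, ratio 0.0356). In the picked cells 0 of 14 rose and 6 fell by limma, with 0 higher and 7 lower at an unadjusted p under 0.05, by edgeR and by DESeq2 alike. C1ql3, which fell by 0.997 (SE 0.33), did not pass without the mouse as a block (limma adjusted p = 0.0864). Nlgn3, a neuroligin that bridges synapses, was at a ratio of 0.9996 and did not pass in picked cells (0.17 ± 0.20, limma adjusted p = 0.590). It turned negative with edgeR (-0.044) and DESeq2.

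Among channels of mechanical detection, Piezo2 and Piezo1 were low in members. Piezo2, the main stretch-activated channel of sensory neurons, had 7 UMIs in members and 2795 in other neurons (0.0286, 0.0115 to 0.0590), and Piezo1 4 and 500 (0.0913). In picked cells Piezo2 fell by 0.56 (SE 0.14) and Piezo1 by 1.86 (SE 0.26, limma adjusted p = 4.13e-06). No gene of the mechanosensation list was over 2-fold higher in members and 6 of 11 were lower, against 3.19% and 9.83% of all genes. In picked cells 0 of 11 rose and 4 fell by limma: Piezo1, Piezo2 and the acid-sensing channels Asic2 and Asic3. At an unadjusted p under 0.05 0 were higher and 5 lower, and by edgeR and DESeq2 0 were higher and 8 lower.

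Trpv1, the capsaicin receptor, was found in all 85 members and 71.7% of other neurons, at 254.3 and 132.4 CPM (1.92-fold, 1.81 to 2.03), and rose by 4.06 ± 0.26 in high-score cells (limma adjusted p = 1.40e-11), with per-mouse ranges of 7.26 to 9.63 against 1.55 to 7.06. Trpc4, a relative of Trpc6, was 3.29-fold higher in members and rose by 3.54 ± 0.25. Trpa1, the irritant receptor, had no settled direction: it was at 13.3 and 133.1 CPM (0.0999) in the droplet library, while in picked cells it was 0.82 ± 0.54 (limma adjusted p = 0.291), -2.60 by edgeR (adjusted p = 0.016) and -3.48 by DESeq2 (adjusted p = 1.41e-04). Of the TRP list, 1 of 9 was over 2-fold higher and 1 lower in members, and 4 of 12 rose and 1 fell in picked cells by limma, against 3 and 3 by edgeR and 4 and 2 by DESeq2.

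Of voltage-gated channels, 8 sodium and HCN genes of 16 rose and 4 fell in picked cells by limma, where 14% and 12.5% of all genes did, but edgeR and DESeq2 each called 6 higher and 7 lower. This compares with 1 of 15 over 2-fold higher and 5 lower in members. Scn3a, a sodium channel alpha subunit, was at 2.21-fold and rose by 1.24 ± 0.27 (limma adjusted p = 9.37e-04). Of 24 potassium channel genes, 7 rose and 11 fell by limma, with Kcnq5 (1.49 ± 0.32) and the calcium-activated channel Kcnn2 (1.85 ± 0.27) among those that rose. By edgeR 6 of them rose and 12 fell, and by DESeq2 7 rose and 12 fell. Kcna1 had 6 UMIs in members and 1515 in other neurons but did not pass in picked cells (-0.43 ± 0.43, limma adjusted p = 0.512; DESeq2 -1.87, adjusted p = 0.0158). Of calcium channel genes 3 of 11 rose and 2 fell by limma, against 2 and 2 by edgeR and 2 and 4 by DESeq2. Cacna1h, the T-type channel, was 2.45-fold and rose by 1.62 ± 0.26, and Cacna2d3, an auxiliary subunit, was at 0.254 and fell by 2.20 (SE 0.33).

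Nicotinic subunits of the ganglionic receptor were higher and 3 others lower. Chrna3 stood at 450.97 and 168.3 CPM (2.68-fold, 2.56 to 2.80), Chrna5 at 24.6 and 8.77 CPM (2.80-fold), and both rose in high-score cells, by 2.30 ± 0.28 and 2.15 ± 0.24. Chrnb4, their usual partner, was 2.49-fold and rose by 3.19 ± 0.23 (limma adjusted p = 1.27e-10). Beside Chrna6 and Chrnb3, Chrna4 fell by 0.34 (SE 0.12, limma adjusted p = 0.0379). The ATP-gated channel P2rx3 fell by 2.69 (SE 0.43), while P2rx2, which marks nodose neurons, rose by 0.79 ± 0.17. Of 18 genes tested 5 rose and 7 fell by limma, against 14% and 12.5% of all genes. By edgeR 4 rose and 7 fell, and by DESeq2 5 rose and 6 fell.

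Among receptors for growth factors and cytokines, Gfra1 was low and Osmr high. The GDNF co-receptor Gfra1 had 7 UMIs in members and 2437 in other neurons (0.0328, 0.0132 to 0.0677) and fell by 2.58 (SE 0.50), and Ret, the signalling receptor it serves, fell by 1.62 (SE 0.25). Osmr ran from 3.01 to 8.84 per mouse in high-score cells and from 0 to 1.82 in other cells and rose by 5.29 ± 0.39 (limma adjusted p = 1.37e-10). Its signalling partner Il6st, gp130, fell by 0.84 (SE 0.25, limma adjusted p = 0.0148), as did Lifr, by 0.72 (SE 0.09). Ngfr, the p75 neurotrophin receptor, was 2.03-fold in members but 0.42 ± 0.16 in picked cells (limma adjusted p = 0.0591). Of the list, 3 of 13 rose and 4 fell by limma, and 2 rose and 8 fell by edgeR and by DESeq2.

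Th, tyrosine hydroxylase, the rate-limiting enzyme of catecholamine synthesis, stood at 197.2 and 52.9 CPM (3.72-fold, 3.47 to 3.99). It rose by 4.39 ± 0.51 in high-score cells (limma adjusted p = 3.27e-07, 17 of 19 mice), with 4.95 to 12.1 per mouse against 1.15 to 7.52. Dbh, which makes noradrenaline from dopamine, was at 0.309 and fell by 1.76 (SE 0.40). Slc17a6, the vesicular glutamate transporter of these neurons, rose by 0.24 ± 0.08 (limma adjusted p = 0.0208). Of 15 genes of glutamate and monoamine transmission tested, 3 rose and 2 fell by limma, 2 rose and 7 fell by edgeR, and 2 rose and 8 fell by DESeq2.

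Of 25 transcription factor genes measured in the droplet library, 14 were over 2-fold lower in members and 3 higher, against 9.83% and 3.19% of all genes. Those higher were Tbx3, a T-box factor (322.3 and 130.9 CPM, 2.46-fold), and Hoxb6 and Hoxb5, which pattern the posterior hindbrain and trunk. In picked cells Tbx3 rose by 1.80 ± 0.24, Hoxb6 by 1.4 ± 0.18 and Hoxb5 by 0.96 ± 0.10, with Isl1 (0.56 ± 0.11) the 4th of 19 tested, and 5 fell, against 4 and 8 by edgeR and 4 and 9 by DESeq2. Pou4f3, a relative of Pou4f1, and Prox2 had 0 UMIs in members and a UMI in 9.16% and 19.3% of other neurons, and Prox2 did not pass in picked cells (-0.18 ± 0.19, limma adjusted p = 0.546; DESeq2 -1.87, adjusted p = 0.00591).

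Among intracellular signalling genes, adenylyl cyclase isoforms lay on both sides. Adcy2 and Adcy3 were 1.76- and 1.89-fold and rose by 0.86 ± 0.17 and 1.11 ± 0.18, while Adcy5 had 9 UMIs in members and 1761 in other neurons (0.0583) and fell by 2.13 (SE 0.29), and Prkcb, a protein kinase C, was at 0.0698 and fell by 1.58 (SE 0.32). Of 29 genes 5 rose and 11 fell by limma, against 14% and 12.5% of all genes. By edgeR 5 rose and 14 fell, and by DESeq2 6 rose and 17 fell. Among neurofilaments and calcium-binding proteins Nefl was level, at a ratio of 1.03 and 0.10 ± 0.08 (limma adjusted p = 0.409), and S100b fell by 2.11 (SE 0.43) with a ratio of 0.108. Genes of the response to dissociation lay on both sides in the droplet library: Dusp1 and Nr4a1 were 1.42- and 1.95-fold and rose by 1.21 ± 0.16 and 2.02 ± 0.20 in picked cells. Atf3 (0.0871) and Jun (0.290) were low in members and did not pass in picked cells (limma adjusted p = 0.105 and 0.628). Nr4a1 was not called by edgeR (0.44, adjusted p = 0.180) or DESeq2, and Atf3 was called lower by both (-2.10 and -2.30).

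Over the 17 lists the median droplet ratio ran from 0.0888 for the 4 measured genes of the secretin family to 1.71 for gut hormone and metabolite receptors, against 0.906 over all genes. In picked cells it ran from -0.98 for its 3 genes tested to 0.36 for the response to dissociation, against -0.00 over all genes.

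Levels of other cells' markers moved in the picked contrast too. Satellite glia genes summed to 1.08 to 4526 CPM with a median of 851 in high-score cells, against 0 to 11230 CPM with a median of 30.8 in other cells. Of that list 1 of 6 tested, Fabp7, rose (1.41 ± 0.46, limma adjusted p = 0.0232). Myelinating Schwann cell genes had medians of 298.04 and 1153 CPM, and Pmp22 fell by 1.89 (SE 0.33). Endothelial genes had medians of 48.05 and 55.6 CPM, with Flt1 and Kdr higher and Egfl7 lower. Jugular-like genes had medians of 15.3 and 0 CPM, with Prrxl1 higher by 2.22 ± 0.36, and sympathetic-like genes 439.01 and 110.2 CPM, with Th higher and Dbh lower. The fibroblast gene Dcn fell by 0.83, and the haemoglobin genes Hba-a1 and Hba-a2 by 0.50 and 1.29. The pan-neuronal genes Snap25, Tubb3 and Uchl1 fell by 0.24, 0.28 and 0.16. The part of these levels in the results was not tested.

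Members differed among themselves. Of 1585 genes at 100 CPM or more in members, the 5 with the largest squared coefficient of variation were Gal, Apoe, Fabp7, Vip and Pcp4, chosen by that measure after the values were seen. Gal ran from 0 to 1118 CPM with a median of 18.1 and a UMI in 56 of 85 members, and 17 had 100 CPM or more. Apoe, a lipoprotein gene that satellite glia express strongly, and Fabp7, a glial fatty acid binding protein, varied together (Pearson's r = 0.74 over 85 cells of 1 library). By this measure, which counting error raises for genes at low levels, Cckar was among the lowest, at rank 1561. Its variance was 7.28 times that of Poisson counts, against 30.1 for Gal and 7.05 for Hspa5, at ranks 1 and 9. Cckar is also a rule gene.

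Within members, cells high in Gal were mostly high in Uts2b. Of the 17 members with 100 CPM or more of Gal, 14 had 500 CPM or more of Uts2b, which 38 of all 85 had. Across the 85 members log2 levels of Gal and Uts2b had a Pearson's r of 0.58 (Spearman's rho 0.63), and Gal and Cd9, a tetraspanin, one of -0.51. Uts2b and Pcp4, a calmodulin regulator, had an r of -0.46. The 35 high-score picked cells, of other mice and another protocol, had r of 0.68 for Gal and Uts2b (rho 0.74), -0.72 for Gal and Cd9, and -0.53 for Uts2b and Pcp4. These are descriptions across cells that share libraries, with no test. Uts2b is a rule gene, so its levels among members and among high-score cells were limited by the choice of cells. The high-score cells with 2107 and 849 CPM of Gal had 0 CPM of Gabre and Cbln4, and 11836 and 6395 CPM of Uts2b. The part of the choice in these correlations was not tested. Vip had r of -0.05 with Gal and -0.10 with Uts2b in members.

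**Figure D5:**
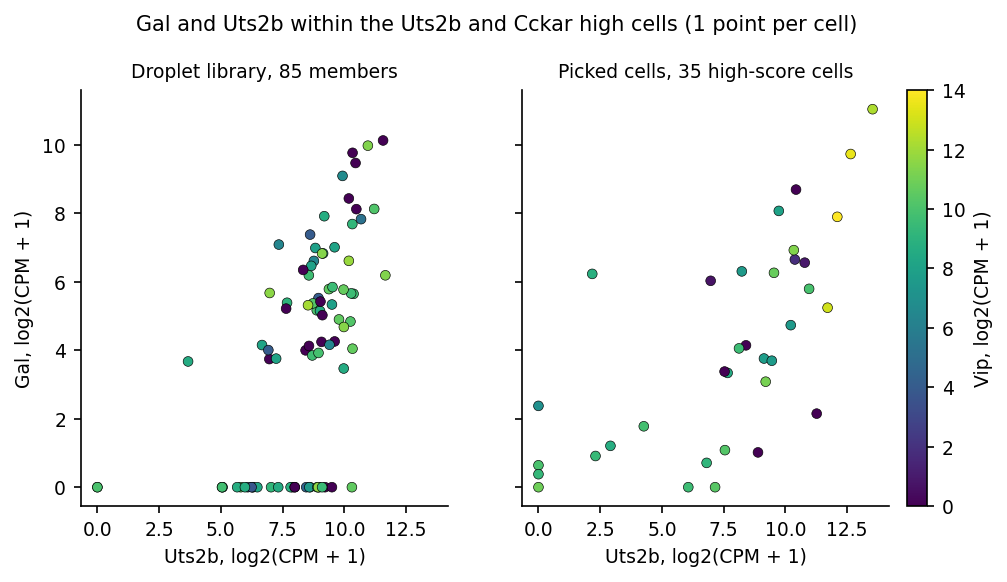
Gal against Uts2b, both as log2(CPM + 1), in the 85 members of the droplet library (left) and the 35 high-score picked cells (right), coloured by Vip; each point is a cell. In both panels most cells high in Gal are high in Uts2b, and cells with little or much Vip occur at both low and high Uts2b. Uts2b is a gene of the score that chose these cells.

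Cells beside the edge of the set shared some genes with members. Among other neurons 20 had Uts2b at 100 CPM or more, with 130 to 3072 CPM. All 20 had Cckar (457 to 3686 CPM, median 1559), Kcnk3 and Rab3c, while 17 had Myl1 and 6 had Osmr. Their levels of the rule genes were limited by the choice of members. In the picked set, 3 of the 35 high-score cells had fewer than 10 reads of both Gabre and Cbln4, 1 each of the codes GastP, IntD and IntM. They had Vip at 4924 to 12097 CPM, which 1 of the other 32 reached, and Kcnk3 at 128.5 to 235.1 CPM, below the 320 to 1247 CPM of all 32. Without these 3 cells, an alternative chosen after seeing the data, 1730 genes were higher and 1543 lower over 17 mice, Vip rose by 5.79 and Synpr fell by 5.67.

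Neuron types with the most similar profile were compared, each the 40 barcodes outside the members highest in a pair of genes. Over 11158 genes the summed profile of members had a Spearman's rho of 0.916 with the Pnlip and Col6a5 cells, 0.914 with the Efcab6 and Trpa1 cells, 0.912 with the Rtp1 and Grp cells, and 0.837 with the lowest of 10, the Runx3 and Pvalb cells. With the sum of all 982 other neurons it was 0.928, so none of the 10 types was closer to members than these neurons pooled. Cckar stood at 2118 CPM in members, 519 CPM in Rtp1 and Grp cells, 220 CPM in Pnlip and Col6a5 cells and 19.1 CPM in Efcab6 and Trpa1 cells. Uts2b stood at 589, 226.6, 8.17 and 4.99 CPM in the same order, and Vip at 661, 352.8, 26.7 and 121.96 CPM.

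Of these 3 types, Rtp1 and Grp cells had the highest levels of Uts2b and Cckar. Osmr had 0 UMIs there, so it was at least 42.3-fold higher in members, and Amigo2 was 37.5-fold higher (23.7 to 63.4), while Myl1 was 5.58-fold (4.80 to 6.51). Of 5065 genes compared, 4.62% were over 2-fold higher in members and 4.32% lower, against 4.80% and 3.98% for Pnlip and Col6a5 cells and 6.72% and 7.81% for Efcab6 and Trpa1 cells. With 1 library, none of these was tested.

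High-score cells were found under every target code. Shares of high-score cells per mouse were 4.26% ± 4.94 for the 2 Gast codes (SD, n = 8 mice, 5 high-score cells) and 8.98% ± 8.70 for the 4 Int codes (SD, n = 13 mice, 17 high-score cells). The difference, -4.72 percentage points, was within the spread between mice (exact permutation test, two-sided, p = 0.184, 203490 splits), with 5 of 8 Gast mice below the median Int mouse. Among mice numbered up to 39 it was -6.89 points (exact permutation p = 0.175, n = 4 and 13). Single codes ran from 2.78% ± 4.81 for GastP (SD, n = 3 mice) to 17.4% ± 5.39 for IntM (SD, n = 3), where each mouse had 13.3 to 23.5%. IntL mice ranged from 0 to 25% and Port mice, 8 in number, from 0 to 16.7%. The difference between single codes was not tested.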

How the data were processed

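The droplet library came from nodose ganglion cells dissociated with papain, collagenase and dispase, per the labels' protocols, and Cell Ranger 2.0.1 and mm10 are named in the submitters' processing notes. The deposited matrices hold UMI counts, raw, filtered to barcodes taken as cells and unfiltered (737280 barcodes), and other deposited files hold only gene and barcode names. The authors' table of picked cells holds log2 values, per the file header with mouse and target codes; 94.1% of values above its floor were whole reads within 1 part in 1000 once reversed, and those reads gave CPM. The sources used here do not name its aligner. One column of per-sample values that names no sample was not used (1 column).

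Droplet ratios are summed CPM with exact Poisson intervals at 95%, over genes with 200 UMIs; satellite glia-like barcodes had 20000 CPM of their list. Doublets were called with Scrublet (scanpy 1.11.5) and kept. Picked cells were tested with limma 3.58.1 (trend, Benjamini-Hochberg) on differences within a mouse, pseudocount 1, over genes with 10 reads in 5% of cells. Since high-score and other cells of a mouse come from the same animal, the mouse is the block. In simulated data for this comparison limma recovered 79.5% of genes changed by a log2 of 1 and 99% of those changed by 2, over 12702 genes. Alternatives used edgeR 4.0.16 and DESeq2 1.42.0 on summed reads, R 4.3.3, Python 3.11.15 and scipy 1.17.1. Shares of cells were compared over mice with at least 4 cells by an exact permutation test.

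Genes named are the 12 highest and 8 lowest droplet ratios, the 2 highest and 2 lowest of each list, and the 8 highest and 8 lowest changes of picked cells; other list genes were named after their values were seen. Some genes that this rule names are not reported here. Members and lists were chosen with earlier results of these data known. Gene coordinates are of GRCm38 (GENCODE).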

Additional observations from a re-analysis of the deposited data

How the results depend on the processing

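In the droplet library 3.19% of genes were over 2-fold higher and 1097 genes over 2-fold lower. The counts became 1788 lower with 50 UMIs per gene, 1383 higher and 5853 lower with 1 UMI, and about 1.8e+02 higher and 565 lower with barcodes thinned to 10000 UMIs, where more or fewer genes reach the minimum. In the picked cells DESeq2 called 2736 genes lower, against 1583 by limma; the cause was not tested. Leaving out 1 mouse at a time gave 1657 to 1844 higher and 1423 to 1630 lower genes, and leaving out 1 mouse moved the Gast minus Int share between -5.89 and -3.38 points. The fit without the mouse as a replicate block gave 1653 higher and 1405 lower genes. With only the 9 mice of at least 2 high-score cells, 1373 genes were higher and 1319 lower. Other counts and the share kept their direction and side of the threshold, with pseudocounts of 0.1 and 10 giving 1889 and 1596 higher genes. Of single genes in picked cells, the log2 change turned with edgeR for Nlgn3 (-0.044), Trpa1 (-2.60) and Calb1 (-0.18), and with DESeq2 for Nlgn3 (-0.0435), Gria1 (0.71), Trpa1 (-3.48) and Calb1 (-0.36). It turned with the 20 highest cells for Nefl (-0.021) and Prox2 (0.25), with the 60 highest for Hgf (0.22), Pcdh20 (0.041), Pth1r (0.14), C1ql3 (0.12), Nefl (-0.0098), Calb1 (-0.0051) and Ngfr (-0.13), and with cells of 10 reads of Uts2b for Hgf (0.19), Pcdh20 (0.033), C1ql3 (0.20) and Calb1 (-0.20). In other settings 37 calls of single genes were gained and 78 lost. Low counts limit the droplet ratios of genes with few UMIs in members.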

Other observations

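Of the 978 tested genes over 2-fold lower in members of the droplet library, 12 were higher in high-score picked cells by limma. Efcab6 had a ratio of 0.468 and rose by 2.88 (adjusted p = 2.63e-04), Rprm a ratio of 0.403 and rose by 1.99 (adjusted p = 9.70e-06), and the sodium channel gene Scn1a a ratio of 0.210 and rose by 1.15 (adjusted p = 0.0386). Ndufa4, Ndufs7 and Uqcrb, which encode proteins of the respiratory chain, were among them, with log2 changes of 0.16, 0.20 and 0.28.

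Outside the filtered droplet matrix, 1360 barcodes of the unfiltered one had 1000 UMIs or more, and those of them that reached the Snap25 minimum had a median of 1948 UMIs. Of these, 1 scored at or above the last member, 0.229% (exact Clopper-Pearson interval 0.00581 to 1.27%). That barcode had 8797 UMIs, and members had a median of 64473. The scarcer rule genes are easily missed at low depth, which lowers the score. A UMI of Gabre lay in 88.2% of members at full depth and in 49.4% after the thinning described above. The share therefore cannot tell how common such cells were outside the filtered matrix, and this was not tested.

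The 4 mice whose target code reads "na" had 7 high-score cells among 53, a mean share of 11.7% ± 11.4 (SD, n = 4 mice) with single mice from 0 to 26.7%.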
